A study of Mus musculus with 6 samples.

Results

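V7 and WT2 are clonal lines of EL4, a mouse T cell lymphoma, and their comparison rests on 4 of the 6 arrays of the series, 2 aliquots of cells per clone. According to the labels, WT2 is sensitive to the phorbol ester PMA, does not adhere to plastic and does not metastasise. V7 is labelled resistant to PMA, adherent and metastatic. The remaining 2 arrays hold C5, a PMA-resistant, adherent and highly metastatic clone, which entered the fit so that all lines shared 1 estimate of the spread. Cells of every line were growing, were left overnight in medium without serum and received no PMA or other agent. Each set of labels is represented by a single clone, so a difference between phenotypes and a difference between clones cannot be told apart. Of 45101 probe sets on the array, 45037 are no array control, and all of these were considered. Separate cultures are not stated for the duplicate aliquots, so p-values below measure only how far aliquots differ, a spread that may be technical. With 2 arrays against 2, an exact permutation test cannot give a two-sided p below 0.333, so the tests come from a model fitted across all probe sets.

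PMA takes the place of diacylglycerol, the lipid that phospholipase C releases when surface receptors are engaged. It binds protein kinase C and the Ras activators of the RasGRP family, and through Ras, Raf and the MAP kinases it reaches transcription factors of the AP-1 and ETS families. Adherent growth depends on other proteins, among them integrins with their focal adhesion partners, cadherins and catenins, matrix components and the actin cytoskeleton. The comparison asks how transcripts of these systems, and of the surface and metabolism of the cell, differ between a sensitive, floating clone and a resistant, adherent one.

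Each array gave 1 linear signal per probe set, and values below are such signals unless named as changes. Median signals were 20.4 and 21.5 on the WT2 arrays and 15.8 and 15.9 on the V7 arrays. The 3' to 5' ratio of the Gapdh control, a sign of RNA or labelling quality, was 1.51 and 1.77 in WT2 and 0.960 and 0.887 in V7. That of beta-actin was 1.83 and 2.04 in WT2 and 2.5 and 2.04 in V7. The Gapdh ratio moved with the comparison and so with every gene group below, and its part in the results was not tested. In RNA from whole cultures, fewer cells with a transcript and less transcript per cell cannot be told apart. T cell markers were in part detected in both clones and in part in 1 clone. Cd3e, a chain of the T cell receptor complex, was at 1867 and 2149 in WT2 and at 1048 and 917 in V7. Cd2, an adhesion receptor of T cells, was at 887 and 795 in WT2 and at 0.903 and 7.25 in V7, whereas T cell receptor associated transmembrane adaptor 1 was at 6.34 and 1.21 in WT2 and at 1408 and 1470 in V7. Over the 8 marker genes the log2 change ranged from −6.63 to 7.42.

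The element through which phorbol esters act on many genes is the AP-1 site TGACTCA, which reads TGAGTCA on the other strand. It was searched for in the 250 bases before the start of transcription of genes with a RefSeq promoter (build GRCm38.p6). The windows of 5 genes that passed the test in V7 against WT2, and that are described below, are shown because they hold it, with the element in capitals and the sequence on the strand of the gene. They belong to the membrane-binding protein annexin A2 (Anxa2, chr9:69453433-69453682, plus strand), adenylate cyclase 7 (Adcy7, chr8:88288816-88289065, plus strand), the focal adhesion protein zyxin (Zyx, chr6:42349578-42349827, plus strand) and metallothionein 2 (Mt2, chr8:94172368-94172617, plus strand), all lower in V7. The fifth is the germ cell gene Tex19.1 (chr11:121145893-121146142, plus strand), higher in V7. The window of Mycn (chr12:12941837-12942086, minus strand), the gene with one of the largest falls, is shown for comparison and has no match.
Anxa2: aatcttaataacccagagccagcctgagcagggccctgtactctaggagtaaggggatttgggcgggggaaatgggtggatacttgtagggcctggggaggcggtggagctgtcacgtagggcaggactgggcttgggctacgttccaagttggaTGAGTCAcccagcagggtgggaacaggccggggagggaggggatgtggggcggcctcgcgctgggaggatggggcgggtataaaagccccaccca
Adcy7: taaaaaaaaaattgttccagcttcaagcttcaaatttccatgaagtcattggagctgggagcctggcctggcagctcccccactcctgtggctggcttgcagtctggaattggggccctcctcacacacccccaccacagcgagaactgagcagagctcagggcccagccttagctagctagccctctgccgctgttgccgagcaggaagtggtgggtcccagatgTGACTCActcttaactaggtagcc
Zyx: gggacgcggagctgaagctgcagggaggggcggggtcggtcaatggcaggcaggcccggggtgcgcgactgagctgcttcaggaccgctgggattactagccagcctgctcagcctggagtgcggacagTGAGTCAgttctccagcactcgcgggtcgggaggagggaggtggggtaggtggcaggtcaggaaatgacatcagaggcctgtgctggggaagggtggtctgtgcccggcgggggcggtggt
Mt2: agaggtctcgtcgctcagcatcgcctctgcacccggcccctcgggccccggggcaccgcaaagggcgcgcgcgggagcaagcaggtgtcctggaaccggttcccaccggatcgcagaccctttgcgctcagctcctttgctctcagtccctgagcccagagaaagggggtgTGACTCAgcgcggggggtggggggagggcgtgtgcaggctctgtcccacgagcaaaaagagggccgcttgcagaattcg
Tex19.1: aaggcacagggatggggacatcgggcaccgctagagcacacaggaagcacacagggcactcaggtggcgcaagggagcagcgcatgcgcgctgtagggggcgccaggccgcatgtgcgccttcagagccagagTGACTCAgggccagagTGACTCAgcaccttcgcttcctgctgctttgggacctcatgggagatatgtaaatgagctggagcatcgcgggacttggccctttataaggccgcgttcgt
Mycn: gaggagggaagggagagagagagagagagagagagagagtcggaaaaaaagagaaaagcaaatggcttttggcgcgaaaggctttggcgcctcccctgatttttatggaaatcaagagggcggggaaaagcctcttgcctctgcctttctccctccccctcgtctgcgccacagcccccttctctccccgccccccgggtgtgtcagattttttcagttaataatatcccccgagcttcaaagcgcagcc

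Of 32851 promoters in the RefSeq table, 4.46% held it, against 6 of 191 promoters of named genes higher in V7 (3.14%) and 7 of 201 of those lower in V7 (3.48%). The E-box CACGTG, the site of MYC family proteins and the same on both strands, was in 6.02% of all promoters, in 17 of the 191 (8.90%) and in 16 of the 201 (7.96%). The 2 motifs were counted separately, and their matches may overlap. Promoters were matched for 350 of 428 named genes that had a symbol. These counts describe letters in a window and no binding was measured.

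Transcripts differed widely between V7 and WT2, and falls outnumbered rises. Of 27022 probe sets with enough signal to test, 3385 (12.5%) passed limma's moderated test at a Benjamini-Hochberg adjusted p below 0.05 with a change of at least 2-fold. In V7, 1430 of these were higher (5.29% of those tested) and 1955 lower (7.23%). On each of the 3385, the V7 and WT2 arrays did not overlap, which held for 62.3% of all probe sets tested. The median size of a call was 2.97-fold, and 1070 calls reached 4-fold, 234 reached 16-fold and 59 reached 64-fold. Falls made up 57.8% of all calls and between 59.3% and 61.4% of the calls at each of the larger sizes from 4-fold to 64-fold. Over all probe sets tested the median change was −0.13 on the log2 scale. After quantile normalization of the arrays the median was 0.01 and the split turned to 1703 higher and 1536 lower, while 86.1% of the calls kept their direction and no call reversed.

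**Figure D1:**
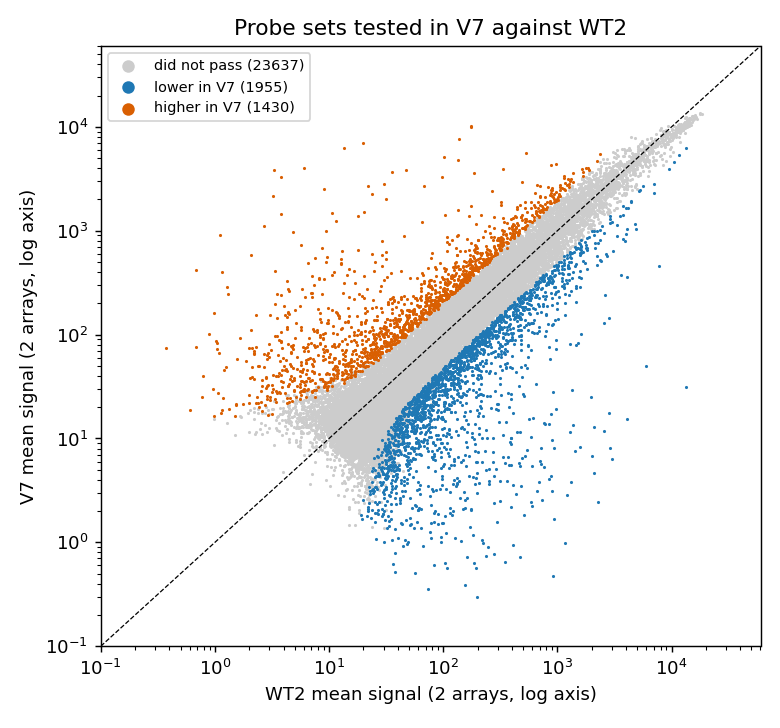
Mean signal of each of the 27022 probe sets tested in WT2 (horizontal axis) and V7 (vertical axis), 2 arrays each, both axes logarithmic. Orange points are the 1430 probe sets called higher in V7, blue points the 1955 called lower and grey points the rest, and the dashed line marks equal signal. Calls lie on either side of the line, those lower in V7 being more numerous.

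Log2 changes were taken after adding 5.03 to every signal. Where a clone's mean is at or below that constant, the direction is measured but the size of the change depends on the constant. This was so in WT2 for 161 of the calls and in V7 for 257. Gene names exist only for probe sets on the submitters' own lists of differences, so 1234 of 1507 named genes tested (81.9%) passed, 632 of them higher (41.9%) and 602 lower (39.9%), and their median change was 0.85. Among 24611 tested probe sets that are not on the submitters' list for this comparison, 5.51% were called. Counts of named genes in the groups below are therefore not independent evidence of a difference, and each is to be read against these shares. For a gene with several named probe sets the brightest of these is given. A probe set of the same gene without a name could not be chosen, so a dim signal need not mean an absent transcript. The mark "shared probes" stands for probe sets that can also detect other transcripts. The mark "at floor" stands for a change whose size depends on the constant because 1 clone's mean is at or below it.

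Some genes differed by very large factors between the clones. Stard10, a lipid transfer protein, gave 151 and 197 in WT2 and 9859 and 10011 in V7 (log2 change 5.81, SE 0.13, adjusted p = 8.89e-11). Adenosine deaminase (Ada), which clears adenosine in lymphocytes, gave 92.8 and 42.5 in WT2 and 2678 and 2717 in V7 (5.31, SE 0.26, adjusted p = 6.71e-08). The C5 arrays read 10121 and 10180 for Stard10 and 1644 and 1962 for Ada, on the side of V7 in both cases. The axon guidance ligand Sema5a was at 8.14 and 3.17 in WT2 and at 692 and 750 in V7 (6.13). The milk protein Casein kappa was at 3.66 and 23.2 in WT2 and 6394 and 6063 in V7, and the granule protease Cathepsin G at 2.26 and 9.75 in WT2 and 4252 and 3845 in V7. Terminal deoxynucleotidyltransferase, which adds bases to rearranging receptor genes, was at 12 and 28.4 in WT2 and 1635 and 1390 in V7. The ubiquitin ligase Rnf128, known in T cells for its part in anergy, was at 3.68 and 13.7 in WT2 and at 719 and 652 in V7 (5.76). Tctex1 domain containing 1 (Tctex1d1) was at 8.49 and 14.5 in WT2 and at 1232 and 1261 in V7 (6.27). As on every call, the arrays of the clones did not overlap for these genes, which held for 62.3% of all probe sets tested.

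Among genes whose WT2 mean lay at or below 5.03, the brightest in V7 was the secreted matrix-associated protein Ccn4 (deposited as WNT1 inducible signaling pathway protein 1), at 0.864 and 6.75 in WT2 and 3447 and 3194 in V7. It was followed by the T cell receptor adaptor named above, Kelch-like 4, at 2.44 and 7.28 in WT2 and 1007 and 939 in V7, and Hapln1, described below. Next came the sialyltransferase St6galnac2, at 2.38 and 1.80 in WT2 and 585 and 575 in V7. Poly (A) polymerase alpha, which adds tails to mRNA, was at 0.539 and 0.840 in WT2 and 436 and 392 in V7. The receptor of atrial natriuretic peptide, Natriuretic peptide receptor 1, was at 5.36 and 1.41 in WT2 and 404 and 408 in V7. Others of this kind were the splicing factor Ataxin 2 binding protein 1 (Rbfox1), the chromatin protein Sfmbt2 and the ciliary protein Polycystic kidney and hepatic disease 1, with V7 means of 325, 285 and 276.

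The opposite pattern, bright in WT2 and dim in V7, was led by Immunoresponsive gene 1, the enzyme that makes itaconate, at 2411 and 2146 in WT2 and 2.07 and 2.79 in V7. Spsb4, a SOCS box protein, was at 1429 and 1209 in WT2 and 6.62 and 0.914 in V7. Cd2, given above, belonged here too. Dickkopf homolog 3, a secreted protein of the Dickkopf family of Wnt pathway modulators, was at 1022 and 782 in WT2 and at 1.58 and 4.66 in V7. Troponin T1 (Tnnt1), a part of the slow muscle contractile apparatus, was at 776 and 604 in WT2 and at 1.13 and 6.53 in V7. Sarcoglycan epsilon (Sgce), of the dystrophin-associated complex, was at 611 and 718 in WT2 and at 1.06 and 5.20 in V7. Leukotriene B4 12-hydroxydehydrogenase, which inactivates leukotriene B4 and prostaglandins, Kallikrein 1-related peptidase b27 (Klk1b27) and G protein-coupled receptor 177, the carrier of Wnt proteins, had WT2 means of 739, 594 and 581 and V7 means below 3. The spine protein Protein phosphatase 1 regulatory subunit 9A, at 999 and 850 in WT2, was at 14.9 and 1.32 in V7 (−6.37, SE 0.43, adjusted p = 9.99e-07).

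Most genes deposited under the name of a CD antigen were lower in V7. Of 14 named genes deposited as CD antigens, 12 fell in V7, 1 rose and 1 did not pass, with a median log2 change of −2.28. Of all named genes tested 39.9% fell. The group follows the wording of the deposited names, so surface proteins deposited under other names were not counted in it. Cd52, a small glycoprotein of mature lymphocytes, was at 1733 and 1441 in WT2 and at 10.6 and 6.11 in V7 (−6.91, SE 0.26, adjusted p = 9.52e-09). Cd38, an ectoenzyme that consumes NAD, was at 663 and 771 in WT2 and at 9.72 and 1.52 in V7 (−6.20, SE 0.39, adjusted p = 5.60e-07). Cd24a, a mucin-like antigen of immature lymphocytes, averaged 129 ± 1.07 (SD, n = 2) in WT2 and was at 1.10 and 5.93 in V7 (at floor, −4.03, SE 0.51, adjusted p = 1.54e-04). Cd5, an inhibitory receptor of T cells, was lower without nearing the floor, at 677 and 535 in WT2 and 108 and 149 in V7 (−2.21). Cd3e at −1.03 and Cd84 at −1.04 lay close to 2-fold, and both calls were lost without WT2 aliquot 2 or without V7 aliquot 2. The single rise among these 14 genes, Cd96, was at 405 and 572 in WT2 and at 3057 and 2869 in V7 (2.61, SE 0.15, adjusted p = 2.71e-07). Cd160, a receptor of cytotoxic cells, was at 52.6 and 74.2 in WT2 and at 120 and 125 in V7 and missed 2-fold (0.92).

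Some leukocyte surface proteins outside the CD antigen group fell as well, while others, given below, rose. The SLAM family receptor Slamf9 was at 609 and 919 in WT2 and at 1.61 and 9.09 in V7 (−6.28). Ms4a6b, a 4-span membrane protein of T cells, was at 1228 and 1493 in WT2 and at 13 and 13.8 in V7 (−6.20), and its relative Ms4a4b fell by 3.86 (at floor). The inhibitory Fc receptor for IgG, known from B and myeloid cells and deposited as Fc receptor, IgG, low affinity IIb, was at 1834 and 2372 in WT2 and at 1.64 and 7.58 in V7 (−7.83, shared probes, at floor). The ATP-gated channel P2X7 was at 344 and 278 in WT2 and at 44.4 and 54.7 in V7 (−2.53).

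**Figure D2:**
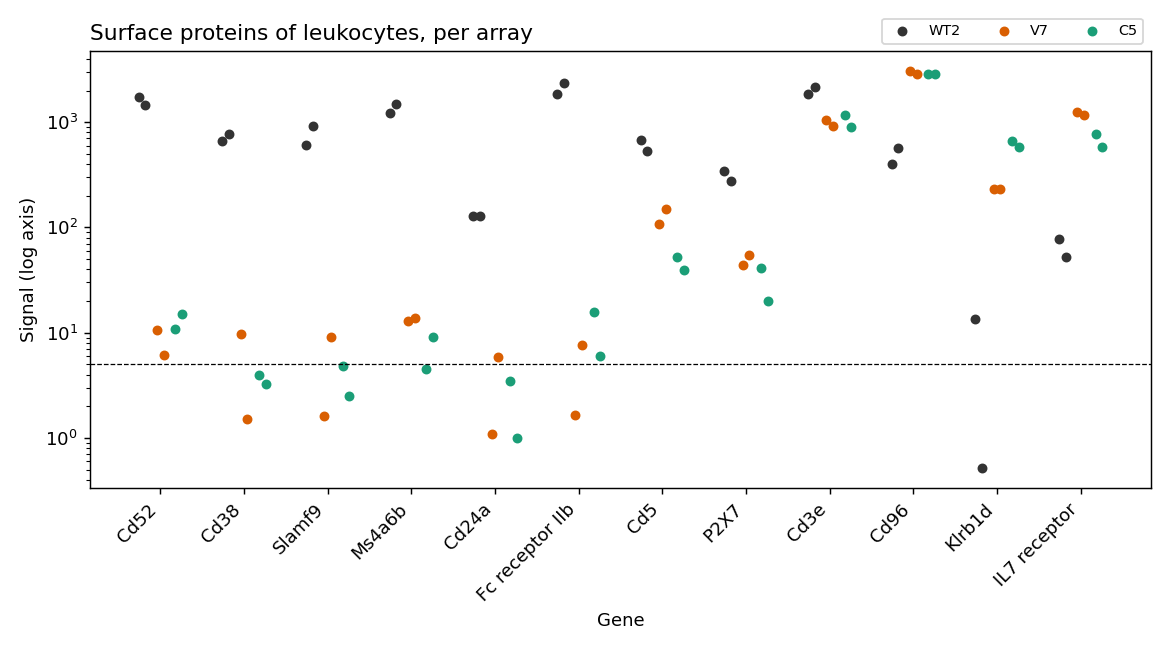
Signal on each WT2, V7 and C5 array (2 points per line, logarithmic axis) of 12 surface proteins of leukocytes named in the text, with the added constant of 5.03 as a dashed line. Cd52, Cd38, Slamf9, Ms4a6b and Cd24a are bright in WT2 alone, whereas Cd96, Klrb1d and the interleukin 7 receptor are brighter in V7.

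Transcripts of other lineages were found on either side. Of the T cell markers, 6 of 8 fell and 2 rose, with summed signals of 4550 and 4654 in WT2 and 2781 and 2756 in V7. Both named B cell markers, immunoglobulin kappa V segments with shared probes, rose. V1 was at 20.1 and 24 in WT2 and at 2717 and 2689 in V7 (6.65), and V28 at 1.08 and 5.37 in WT2 and at 2253 and 2104 in V7 (8.10, at floor). All 3 natural killer cell markers rose, their sum going from 118 and 116 in WT2 to 563 and 529 in V7. Among them Klrb1d, a lectin-like receptor, was at 13.5 and 0.520 in WT2 and at 230 and 232 in V7 (4.54), and granzyme A (Gzma) rose by 1.78. The mast cell protease Cpa3 was at 1735 and 2259 in WT2 and at 11.2 and 2.42 in V7. Named markers of mast cells (1 up, 1 down), epithelial cells (1 up, 2 down) and fibroblasts and muscle (1 up, 1 down) split. Those of fibroblasts and muscle changed by 3.46 and −6.82. Keratin 28 was at 2.05 and 14.3 in WT2 and at 311 and 385 in V7 (4.91), whereas Keratin 2 fell by 3.31 (at floor). The part of other cell types in the group counts was not tested.

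Of 14 named genes of proteins that bind, make or use diacylglycerol or respond to phorbol esters, 11 fell in V7 and 3 rose, and the median change was −2.38 on the log2 scale. Among all named genes tested 39.9% fell. Phospholipase C gamma 1, which makes diacylglycerol behind the T cell receptor, was at 401 and 368 in WT2 and at 49.5 and 48.0 in V7 (−2.86, SE 0.22, adjusted p = 2.70e-06). Protein kinase C beta 1, a classical isoform that PMA activates, was at 1265 and 1312 in WT2 and at 10.7 and 12.2 in V7. Protein kinase C eta (Prkch) was at 1429 and 1505 in WT2 and at 504 and 455 in V7 (−1.60, SE 0.13, adjusted p = 4.77e-06). Its C5 signals were 1132 and 983. Protein kinase C epsilon was at 164 and 176 in WT2 and at 47.3 and 66.3 in V7 (−1.52, SE 0.23, adjusted p = 6.00e-04). The protein kinase C substrate MARCKS, an actin-linked membrane protein, was at 139 and 156 in WT2 and at 7.11 and 5.17 in V7 (−3.78, shared probes). The 3 that rose were phospholipases. A protein with the X domain of phospholipase C was at 99.9 and 85.5 in WT2 and at 476 and 508 in V7 (2.35), and the eta 1 form at 29.1 and 38.6 in WT2 and at 139 and 108 in V7 (1.72). The third, phospholipase C beta 1, was at 3.79 and 20.8 in WT2 and at 59.2 and 47.2 in V7 (1.94), a call lost without either V7 array or without WT2 aliquot 1.

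Of the cascade from Ras to the MAP kinases, all 10 named entries fell, with a median change of −1.68. B-raf was counted under 2 entries, so the genes are fewer than 10. The list also mixes parts, as it holds Rasa2, which acts against Ras, and kinases of the stress branch. Of all named genes tested 39.9% fell. Members of the cascade without a deposited name could not be counted. Nras, deposited as Neuroblastoma ras oncogene, was at 288 and 250 in WT2 and at 89.9 and 113 in V7 (−1.37, SE 0.21, adjusted p = 6.63e-04). Map3k5, a kinase of the stress branch, was at 432 and 484 in WT2 and at 86.5 and 106 in V7 (−2.20, SE 0.19, adjusted p = 7.91e-06). Map3k6 was at 147 and 148 in WT2 and at 3.01 and 1.22 in V7 (−4.43, at floor). Rasa2, which switches Ras off, fell by 1.18. The Ras activator Son of sevenless homolog 1 (−1.08) and a B-raf entry (−1.10) lay close to 2-fold, and both calls were lost without V7 aliquot 1, without V7 aliquot 2 and without 1 of the WT2 aliquots (aliquot 2 for the first, aliquot 1 for the second). A second entry, Braf transforming gene, fell by 1.61, a call lost without V7 aliquot 1. Under quantile normalization 8 of the 10 passed, all as falls. Outside this list, the ribosomal S6 kinase Rps6ka1, which ERK activates, was at 436 and 353 in WT2 and at 24.5 and 23.4 in V7 (−3.78, SE 0.40, adjusted p = 3.60e-05), and its relative deposited as polypeptide 3 was at 1350 and 1721 in WT2 and at 358 and 360 in V7 (−2.07).

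Phosphatases and immediate transcription factors did not share one direction. Of 9 dual specificity and tyrosine phosphatases, 5 rose and 4 fell. Ptpro, a receptor-type tyrosine phosphatase, was at 13.2 and 36.2 in WT2 and at 421 and 404 in V7 (3.93, SE 0.30, adjusted p = 3.02e-06). Dual specificity phosphatase 12 rose by 2.62 and Protein tyrosine phosphatase 4a1 by 1.14, whereas the non-receptor type 14 fell by 1.87. Of 4 AP-1 and ETS factors 3 fell and 1 rose, and the largest fall, −4.75, was that of a member not described here. The AP-1 subunit Fos-like antigen 2 was at 69.3 and 70.4 in WT2 and at 21.3 and 12.1 in V7 (−1.82), and ets variant gene 3 fell by 1.40. Jdp2, a repressor that pairs with AP-1 proteins, was at 29.1 and 13 in WT2 and at 153 and 121 in V7 (2.51, SE 0.30, adjusted p = 1.06e-04), the single rise of the list.

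T cell receptor adaptors and kinases were mixed, 6 down and 3 up of 9. Lymphocyte cytosolic protein 2, the adaptor SLP-76, was at 499 and 550 in WT2 and at 145 and 130 in V7 (−1.89, SE 0.16, adjusted p = 6.99e-06). Its partner FYN binding protein was at 2156 and 2966 in WT2 and at 19.6 and 4.13 in V7. The kinase Fyn was at 412 and 477 in WT2 and at 183 and 159 in V7 (−1.35). The adaptor of B cells and mast cells, Linker for activation of T cells family member 2, was at 3.27 and 7.99 in WT2 and at 58.4 and 44.1 in V7 (2.42). Cytokines and their receptors also split, with 8 higher, 10 lower and 2 not passed among 20. The interleukin 7 receptor, a survival receptor of T cells, was at 76.9 and 52.2 in WT2 and at 1241 and 1170 in V7. Interferon gamma receptor 1 (Ifngr1) was at 1199 and 1346 in WT2 and at 242 and 237 in V7 (−2.38, SE 0.16, adjusted p = 9.02e-07), and the second chain of the interferon alpha and beta receptor and the kinase Jak1 that serves both fell by 1.30 and 1.18. The shared chain of the interleukin 6 family, Interleukin 6 signal transducer, fell by 1.55. Tumor necrosis factor receptor superfamily member 21, a death receptor, was at 4.22 and 3.89 in WT2 and at 179 and 197 in V7 (4.41, shared probes, at floor).

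The group of G protein-coupled receptors and their G proteins was mostly lower, with 13 of 22 down, 4 up and 5 not passed. Its largest fall, −6.28, was that of the carrier of Wnt proteins named above. That gene was counted here although, as such a carrier, it is of neither kind. Both named receptors of prostaglandin E2, which raise cyclic AMP, fell. Ptger2 was at 130 and 183 in WT2 and at 0.440 and 0.339 in V7 (at floor, −4.88, SE 0.46, adjusted p = 1.47e-05). Ptger4 was at 988 and 1475 in WT2 and at 432 and 436 in V7 (−1.46, SE 0.18, adjusted p = 1.26e-04). The thrombin receptor was at 410 and 516 in WT2 and at 4.53 and 7.07 in V7 (−5.43, shared probes), and the proton- and lipid-sensing Gpr132 at 991 and 709 in WT2 and at 67.2 and 86.3 in V7 (−3.38). Rgs10, which switches G proteins off, fell from 1199 and 1149 to 153 and 153 (−2.90, SE 0.17, adjusted p = 2.66e-07). The inhibitory alpha subunit 3 rose by 1.24 and the orphan receptor G protein-coupled receptor 174 by 2.53.

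Cyclic AMP genes held pairs of relatives with opposite changes. Of 9 named genes, 5 fell, 3 rose and 1 did not pass. Adcy7, whose promoter with the AP-1 element is printed above, makes cyclic AMP, and its signals were 2547 and 2701 in WT2 and 237 and 246 in V7 (−3.42, SE 0.15, adjusted p = 2.92e-08, shared probes). Type II regulatory subunits of the cyclic AMP-dependent kinase went apart, as the alpha form was at 1147 and 1194 in WT2 and at 0.921 and 1.05 in V7, and the beta form at 22.8 and 25.4 in WT2 and at 234 and 192 in V7 (2.90, shared probes). Phosphodiesterases, which destroy cyclic nucleotides, did likewise. Phosphodiesterase 3B was at 18.3 and 2.79 in WT2 and at 1442 and 1496 in V7, whereas 7A was at 786 and 1128 in WT2 and at 140 and 137 in V7 (−2.72, shared probes), and 8A and 10A fell by 2.05 and 2.07. The V7 and WT2 arrays did not overlap for these genes, as on every call and on 62.3% of all probe sets tested.

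**Figure D3:**
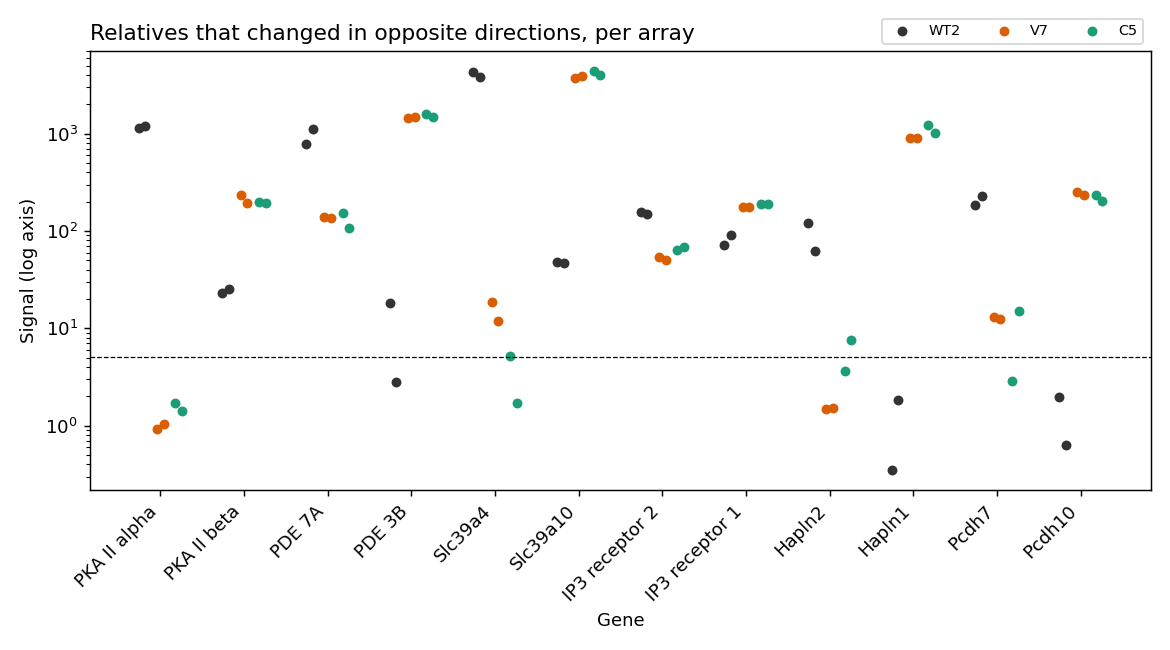
Signal on each array (2 points per line, logarithmic axis) of relatives that changed in opposite directions: regulatory subunits of cyclic AMP-dependent kinase, phosphodiesterases, zinc importers, calcium release channels, hyaluronan link proteins and protocadherins. The dashed line is the added constant of 5.03. In each pair the first gene is brighter in WT2 and the second in V7. V7 and WT2 do not overlap, as on every call and on 62.3% of all probe sets tested.

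Calcium signalling and calcium-binding genes fell in 14 of 21 tested genes, rose in 6 and did not pass in 1. Anxa2, which links membranes to actin and holds the AP-1 element shown above, was at 4544 and 3606 in WT2 and at 350 and 374 in V7 (−3.47, SE 0.14, adjusted p = 1.75e-08). The calcium-binding S100a6 was at 2998 and 2809 in WT2 and at 3.27 and 12.8 in V7. Annexin A5 was at 1001 and 889 in WT2 and at 235 and 255 in V7 (−1.92, SE 0.16, adjusted p = 6.61e-06). S100 calcium binding protein A1 was at 547 and 465 in WT2 and at 22.6 and 29 in V7 (−4.05, shared probes). Nfatc1, the transcription factor that calcineurin activates, was at 177 and 143 in WT2 and at 20.4 and 2.88 in V7 (−3.54, SE 0.57, adjusted p = 8.80e-04). Inositol trisphosphate receptors, which release calcium from the endoplasmic reticulum, went apart, type 2 falling by 1.46 (shared probes) and type 1 (Itpr1) rising by 1.07, a call lost without WT2 aliquot 1. Kcnn4, the calcium-activated potassium channel of activated T cells, was at 2.56 and 4.10 in WT2 and at 199 and 194 in V7 (4.6, at floor). Calmodulin 1 rose by 1.36 and Calcium/calmodulin-dependent protein kinase IV by 1.66, whereas the II delta form (Camk2d) fell by 1.41.

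Transcripts of the actin and myosin cytoskeleton were lower on balance. Of 25 named genes 17 fell and 8 rose, with a median change of −1.47 and a range from −6.82 to 5.06. The gene with the largest fall is not described here. The bulk proteins were among those that fell, such as gamma-actin at 9303 and 9716 in WT2 and 4111 and 3702 in V7 (−1.28, shared probes) and thymosin beta 10, which sequesters actin monomers, at 10450 and 10318 in WT2 and 4369 and 4820 in V7 (−1.18, shared probes). Tropomyosin 4, which coats filaments, was at 2053 and 2187 in WT2 and 742 and 785 in V7 (−1.47, SE 0.12, adjusted p = 4.93e-06). Coronin 1A, the coronin of leukocytes, was at 3569 and 4211 in WT2 and 825 and 769 in V7 (−2.28, SE 0.13, adjusted p = 1.93e-07). Gelsolin, a severing protein (−2.47, shared probes), Capzb, which caps filament ends (−2.19), and the motors Myh9 (−1.86) and Myosin Vb (−2.16) fell as well. A probe set named Actin, beta, cytoplasmic (Actb) rose, at 84.3 and 83.1 in WT2 and 330 and 333 in V7 (1.92). On the array's beta-actin controls the 3' to 5' ratios were those given above.

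The cytoskeletal genes that rose included proteins of protrusions and membrane anchors. Formin-like 2, which lengthens filaments at the leading edge, was at 2.31 and 11.8 in WT2 and at 346 and 385 in V7 (5.06, SE 0.32, adjusted p = 5.79e-07). Myosin VI, the motor that walks toward pointed ends, was at 39.4 and 18.6 in WT2 and at 787 and 791 in V7 (4.62, SE 0.24, adjusted p = 1.32e-07). Radixin (Rdx), which ties actin to the membrane, was at 1270 and 1019 in WT2 and at 2572 and 2455 in V7 (1.14), a call lost without WT2 aliquot 2. Fhl2, a LIM protein of focal adhesions, rose by 1.40.

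Of 40 named small GTPases and regulators, 22 fell, 13 rose and 5 did not pass. Exchange factors of the DOCK family, which turn Rac and Cdc42 on, fell where they passed, with −1.15 for Dock8, −2.22 for member 9 (shared probes), −1.28 for member 10 and −1.10 for member 11. Member 5 did not pass (0.82), and the call of member 11 was lost without WT2 aliquot 2.

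Focal adhesion genes split evenly, with 4 up, 4 down and 1 not passed of 9. The scaffold zyxin, whose promoter is printed above, was at 241 and 172 in WT2 and at 35.2 and 25.4 in V7 (−2.58, SE 0.30, adjusted p = 8.66e-05). Itgae, the integrin chain that binds E-cadherin, was at 15 and 23.4 in WT2 and at 146 and 117 in V7 (2.51, SE 0.26, adjusted p = 3.44e-05, shared probes). Parvin gamma (Parvg), which joins integrin-linked kinase, was at 569 and 620 in WT2 and at 1199 and 1204 in V7, and its change of 1.01 was lost without WT2 aliquot 1 and under quantile normalization.

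Cadherins, their partners and guidance cues were lower in 10 of 17, higher in 6 and not passed in 1. The guidance ligand Sema5a, which rose by 6.13, was not counted here. Alpha 1 catenin (Ctnna1), which couples cadherins to actin, was at 563 and 460 in WT2 and at 2.04 and 1.64 in V7 (at floor, −6.23, SE 0.48, adjusted p = 3.02e-06). Delta 2 catenin (Ctnnd2) was at 263 and 401 in WT2 and at 10.2 and 11.3 in V7 (−4.38, SE 0.33, adjusted p = 2.70e-06). The alpha-like form 1 was at 1.48 and 7.86 in WT2 and at 62.4 and 74.9 in V7 (3.0, shared probes, at floor). Protocadherins went apart. Protocadherin 7 (Pcdh7) was at 184 and 229 in WT2 and at 13 and 12.3 in V7 (−3.57), protocadherin 19 fell by 3.06 (at floor), and protocadherin 10 was at 1.96 and 0.635 in WT2 and at 251 and 235 in V7 (5.30, at floor). Celsr1, the flamingo cadherin of planar polarity, was at 180 and 180 in WT2 and at 14.1 and 6.70 in V7 (−3.62), and Plexin C1, a semaphorin receptor of leukocytes, fell by 1.82.

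Of 20 matrix genes, 12 were higher, 7 lower and 1 not passed, with a median change of 1.19. Over all named genes tested 41.9% were higher and the median was 0.85. Laminin beta 2, a chain of basement membrane laminins, was at 2.06 and 13 in WT2 and at 511 and 583 in V7 (5.61, SE 0.34, adjusted p = 3.87e-07). The integrin ligand deposited as EGF-like repeats and discordin I-like domains 3 was at 7.10 and 11.7 in WT2 and at 998 and 1006 in V7 (6.15, SE 0.19, adjusted p = 2.02e-09), and a second entry spelled discoidin rose by 3.04 (at floor). The cell surface protease Adam9 was at 276 and 202 in WT2 and at 732 and 699 in V7 (1.58). Link proteins that fix hyaluronan to proteoglycans went apart, with Hapln1 at 0.352 and 1.85 in WT2 and 905 and 906 in V7 and link protein 2 at 120 and 61.6 in WT2 and 1.49 and 1.5 in V7 (−3.80, at floor). Collagen XVI alpha 1 fell by 2.77, collagen XXII alpha 1 by 1.87 and collagen XXIII alpha 1 by 1.76, the last a call lost without V7 aliquot 2 or without WT2 aliquot 1. Leprecan-like 1, a collagen-modifying enzyme, was at 40.8 and 47.2 in WT2, 3.58 and 1.96 in V7 and 194 and 193 in C5.

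**Figure D4:**
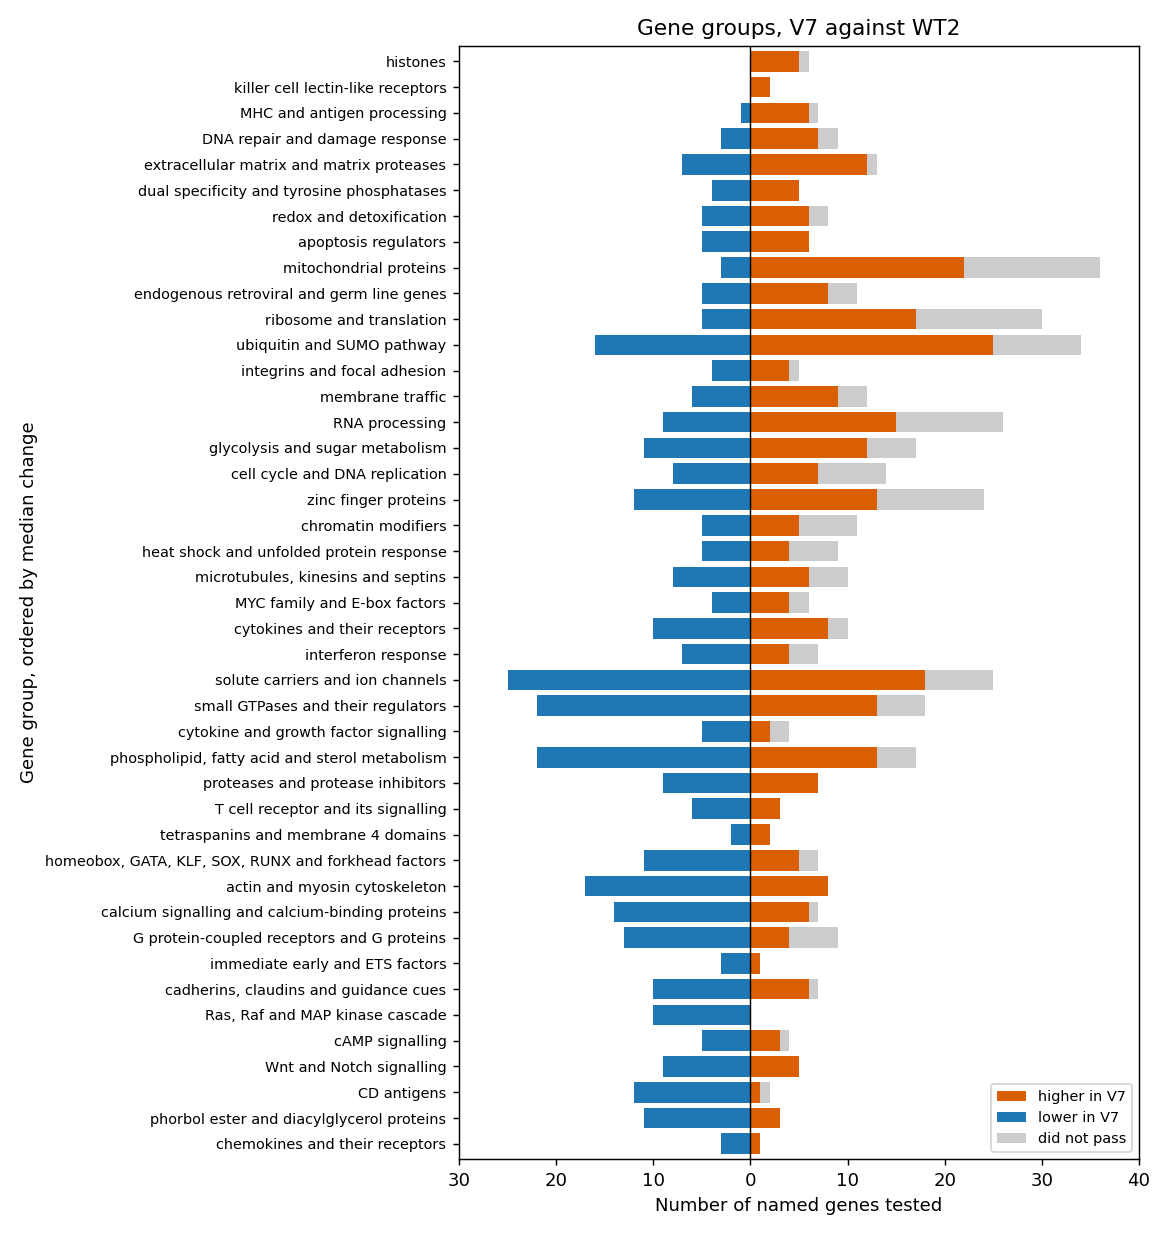
Number of named, tested genes of each of 43 gene groups that were higher (orange), lower (blue) or did not pass (grey) in V7 against WT2. Ras, Raf and MAP kinase genes all lie on the lower side, and histones and mitochondrial proteins lie mostly on the higher side. Groups share some genes, and named genes had been chosen by the submitters for a difference.

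Transporters included large changes in opposite directions. Of 50 named solute carriers and channels, 25 fell, 18 rose and 7 did not pass. The zinc importer Slc39a4 was at 4345 and 3800 in WT2 and at 18.7 and 12 in V7, and the zinc importer Slc39a10 at 48.2 and 46.6 in WT2 and at 3771 and 3948 in V7 (6.20, SE 0.12, adjusted p = 6.48e-11). The zinc exporter of the plasma membrane, family 30 member 1, was at 136 and 194 in WT2 and at 16.8 and 10.9 in V7 (−3.16, SE 0.49, adjusted p = 6.71e-04). Metallothioneins, which bind zinc and follow its level, were all lower. Mt2, whose promoter with the AP-1 element is shown above, was at 11009 and 12412 in WT2 and at 5245 and 5343 in V7 (−1.14, SE 0.09, adjusted p = 5.42e-06). Mt1 changed by −1.11 (shared probes), and metallothionein 3 (Mt3) was at 906 and 425 in WT2 and at 98.9 and 108 in V7 (−2.53). Under quantile normalization the calls of Mt1 and Mt2 were lost.

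Fuel transporters and their pathways changed as well. The glucose carrier GLUT3, deposited as solute carrier family 2 member 3, was at 483 and 584 in WT2 and at 5555 and 5559 in V7 (3.38, SE 0.12, adjusted p = 3.70e-09, shared probes). The lactate carrier Slc16a1 was at 1108 and 1011 in WT2 and at 2608 and 2903 in V7 (1.37, SE 0.11, adjusted p = 5.13e-06). The intracellular sugar carrier Slc2a8 fell by 1.76. Glycogenin (Gyg), which primes glycogen, was at 2801 and 3204 in WT2 and at 11.5 and 1.28 in V7 (−8.20, shared probes), and Phosphofructokinase, muscle (Pfkm) fell by 1.75. Cytosolic isocitrate dehydrogenase (Idh1), which makes NADPH, was at 165 and 103 in WT2 and at 4705 and 4862 in V7 (5.14, shared probes). Over the 28 genes of glycolysis and sugar metabolism that were tested, 12 rose, 11 fell and 5 did not pass. This group is wider than fuel pathways, as its rises include the sialyltransferase St6galnac2.

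Lipid genes fell in 22 of 39, rose in 13 and did not pass in 4. Lysophosphatidylglycerol acyltransferase 1 was at 383 and 427 in WT2 and at 1.14 and 0.741 in V7 (−6.10, at floor). Apolipoprotein D (Apod), a lipocalin, was at 1451 and 1555 in WT2, 96.2 and 70.5 in V7 and 15.3 and 21.6 in C5 (−4.11, SE 0.22, adjusted p = 1.33e-07). Both named sphingomyelinases fell, Smpd2 by 3.90 and Smpdl3b by 4.18 (both at floor). The fatty acid carrier Fabp4 was at 12.3 and 14.2 in WT2, 207 and 290 in V7 and 62.7 and 76.0 in C5 (3.77, SE 0.26, adjusted p = 1.07e-06).

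Transcription factors of development were lower more often than higher, 11 and 5 of 18, and 2 did not pass. The homeobox gene Esx1, of placenta and male germ cells, was at 339 and 625 in WT2 and at 0.976 and 5.97 in V7 (at floor, −5.84, SE 0.39, adjusted p = 1.07e-06). The X-linked reproductive homeobox genes went apart, with Rhox4b at 178 and 123 in WT2 and 2.58 and 3.54 in V7 (−4.24, at floor) and Rhox5 at 16.5 and 22.7 in WT2 and 6770 and 7343 in V7. Hoxa7 was at 8.79 and 5.22 in WT2 and at 263 and 242 in V7 (4.43), whereas Hoxa11 fell by 2.23 and Homeo box C10 by 2.30. Gata3, the master factor of T helper 2 cells, was at 802 and 656 in WT2 and at 355 and 323 in V7 (−1.09), a call lost without WT2 aliquot 1. Runt related transcription factor 2 fell by 1.34. Trp63, a relative of p53, was at 284 and 337 in WT2 and at 1.42 and 3.55 in V7 (−5.40, at floor). Besides Mycn, at 13042 and 13710 in WT2 and 43.5 and 18.6 in V7, the E-box factor of secretory cells deposited as Basic helix-loop-helix domain containing, class B, 8 was at 8.45 and 16.8 in WT2 and at 470 and 500 in V7 (4.84).

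The group of endogenous retroviral and germ line genes rose in 8 of 16, fell in 5 and did not pass in 3. The milk protein Casein kappa, given above, was counted among its rises although it is of neither kind. Transcripts deposited as murine leukemia retrovirus were at 2831 and 2828 in WT2 and at 11.6 and 23.5 in V7 (−7.03, SE 0.27, adjusted p = 1.06e-08), and an env and LTR sequence of mouse mammary tumor virus fell by 2.16. The retroviral melanoma antigen of 80 kDa was at 176 and 173 in WT2 and at 10055 and 10178 in V7 (5.82, SE 0.10, adjusted p = 3.02e-11, shared probes). Tex19.1, which holds 2 AP-1 elements in the promoter printed above and is known in mice for restraining transposons in germ cells, was at 0.767 and 21.1 in WT2 and at 360 and 438 in V7 (5.03, SE 0.49, adjusted p = 2.16e-05). The sperm protein Spa17 rose by 3.59 (at floor), and Tex14, of germ cell bridges, fell by 2.42.

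Histones rose in 5 of 6 named genes and fell in none, with a median change of 2.97. Of all named genes tested 41.9% rose, and of all probe sets tested 5.29%. Histone genes without a deposited name could not be counted. Histone cluster 1 H1c was at 11.5 and 18.4 in WT2 and at 459 and 397 in V7 (4.45, SE 0.23, adjusted p = 1.25e-07). Histone cluster 1 H2bc was at 39.7 and 23.2 in WT2 and at 644 and 602 in V7 (4.14, SE 0.22, adjusted p = 1.32e-07). H2A histone family member J had signals of 1359 and 1348 in WT2 and of 2734 and 2652 in V7 and missed 2-fold narrowly (0.99).

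Mitochondrial proteins rose in 22 of 39 genes, fell in 3 and did not pass in 14, mostly by amounts near 2-fold, with a median of 1.03. That median is near the 0.85 of all named genes tested, of which 41.9% rose and 39.9% fell. Mitochondrial ribosomal protein S16 (Mrps16) was at 1076 and 1187 in WT2 and at 3278 and 3455 in V7 (1.57, SE 0.13, adjusted p = 5.63e-06). Mitochondrial ribosomal protein L51 was at 945 and 796 in WT2 and at 2431 and 2530 in V7 (1.51, SE 0.12, adjusted p = 3.79e-06). The exceptions were Mrpl23, at 1112 and 1084 in WT2 and 292 and 291 in V7 (−1.90), Cox7a2l, at 2183 and 2338 in WT2 and 792 and 728 in V7 (−1.57), and the mitochondrial glycerol-3-phosphate acyltransferase Gpam (−4.94). Genes of the ribosome and translation, which share the mitochondrial ribosomal proteins, rose in 17 of 35 and fell in 5, with a median of 0.99, also near that of all named genes. The fatty acid oxidation enzyme Decr1 was at 28.9 and 31.7 in WT2 and at 366 and 297 in V7 (3.24, SE 0.19, adjusted p = 3.87e-07).

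**Figure D5:**
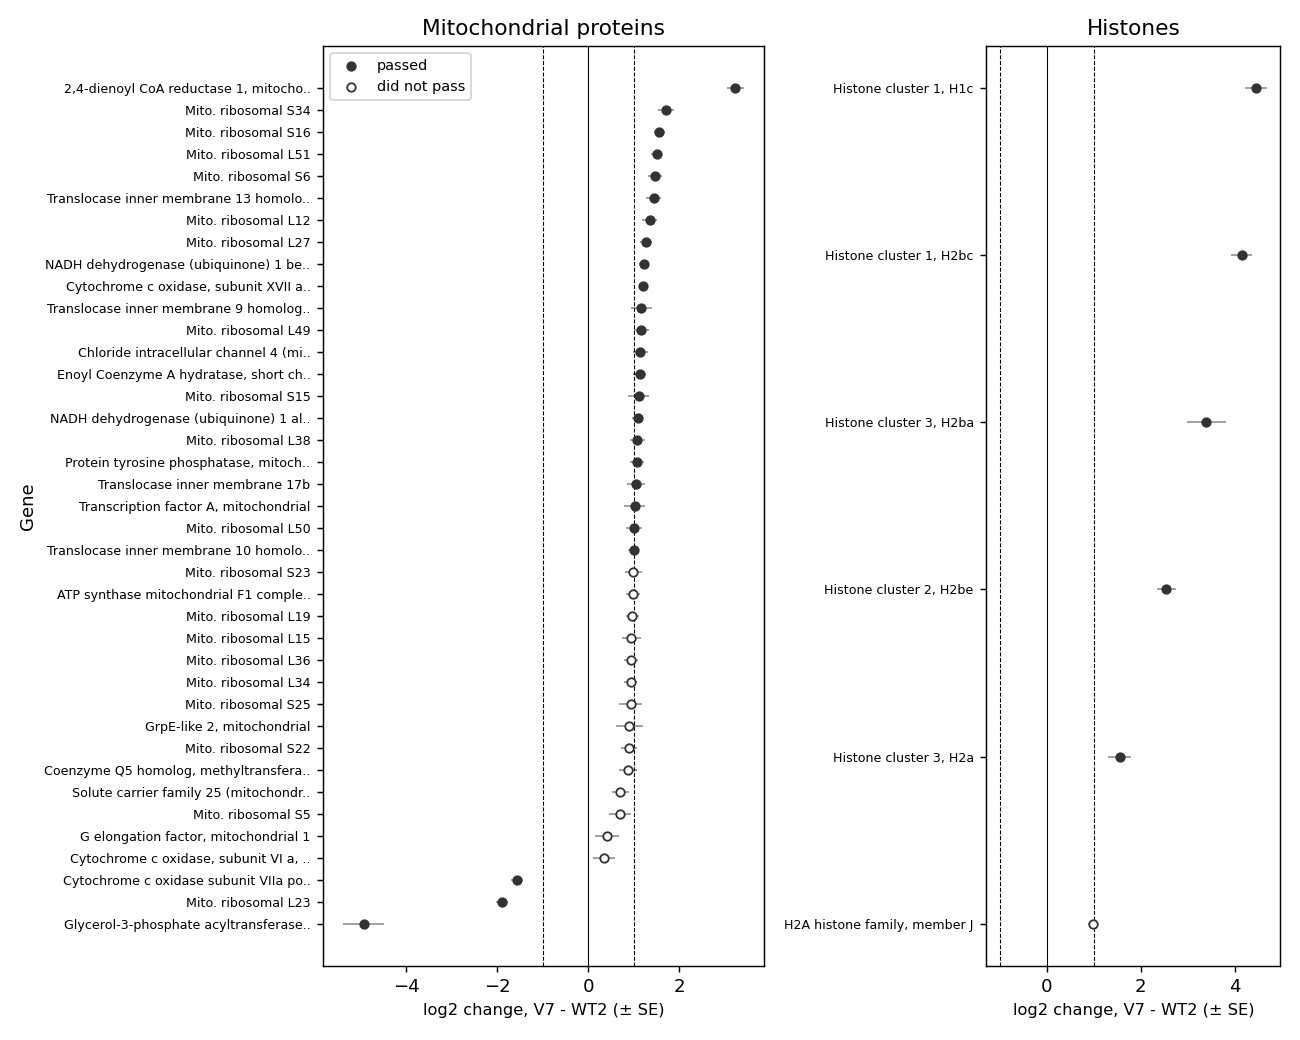
Log2 change, V7 minus WT2, of the 39 mitochondrial protein genes and the 6 histone genes, ordered by size, with bars for the standard error of the fit. Filled points passed the test and open points did not, and dashed lines mark 2-fold. Of the mitochondrial genes 22 lie past 2-fold on the higher side, and histones H1c and H2bc, at 4.45 and 4.14, lie furthest to the right among the histones.

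Genes of cell division did not share a direction. Of 22 cell cycle and replication genes 7 rose, 8 fell and 7 did not pass. Thymidine kinase 1 (Tk1), which supplies thymidylate for DNA synthesis, was at 442 and 488 in WT2 and at 7.93 and 2.96 in V7 (−5.53, SE 0.37, adjusted p = 9.11e-07). E2F transcription factors 2 and 7 rose by 1.18 and 1.70. Of 12 genes listed under DNA repair and damage response 7 rose, 3 fell and 2 did not pass. Among the rises was the kinase Atm, at 394 and 406 in WT2 and 853 and 945 in V7 (1.16, SE 0.13, adjusted p = 5.99e-05). The list is wider than repair enzymes, as its largest rise was poly(ADP-ribose) polymerase member 8 and its largest fall was Trp63, given above. Of 5 named poly(ADP-ribose) polymerases, members 8, 11, 12 and 16 rose by 2.19, 1.26, 1.67 and 1.87 and member 6 fell by 1.27. The death receptor Fas was at 914 and 804 in WT2 and at 2053 and 1776 in V7 (1.15).

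Antigen processing genes were higher in 6 of 8 and lower in 1. The immunoproteasome subunits Psmb8, Psmb9 and Psmb10 rose by 1.14, 1.19 and 1.57, and the call of Psmb8 was lost without WT2 aliquot 2. Psmb9 was at 906 and 940 in WT2 and at 2021 and 2220 in V7, against 1003 and 1503 in C5. The class II chain deposited as histocompatibility 2, class II antigen E beta was at 14.3 and 1.78 in WT2 and at 179 and 172 in V7 (3.98, SE 0.42, adjusted p = 3.87e-05). Interferon response genes fell in 7 of 14 and rose in 4. Interferon activated gene 205 was at 680 and 483 in WT2 and at 83.1 and 59.0 in V7 (−2.94, shared probes), whereas Guanylate binding protein 6 was at 6.02 and 17.3 in WT2 and at 103 and 102 in V7 (2.77).

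Among Wnt and Notch genes 9 fell and 5 rose of 14, with changes from −7.37 to 8.64. The largest rise was that of Ccn4, given above (at floor), and the gene with the largest fall is not described here. Jagged 1, a ligand of Notch, was at 313 and 431 in WT2 and at 22.6 and 32.6 in V7 (−3.53, SE 0.26, adjusted p = 2.54e-06). Wnt inhibitory factor 1, a secreted antagonist, was at 607 and 560 in WT2 and at 122 and 135 in V7 (−2.14, SE 0.17, adjusted p = 4.77e-06), and the receptor Fzd7 fell by 2.17. Both entries named Dishevelled, for transducers of Wnt signals, rose, by 1.36 and 1.58.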

How the data were processed

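RNA of 3 EL4 clones, 2 aliquots each, was prepared with RNeasy columns and DNase and labelled as biotinylated cRNA, per the labels' protocols, and each aliquot was read on 1 Affymetrix mouse array. The deposited intensity values are linear MAS5 signals, per the submitters' processing notes, and further scaling is not stated. The deposited lists with their fold ratios and p-values served only to name probe sets, on their probe set ID.

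From the signals, 64 array controls were removed and log2(signal + 5.03) was taken, the constant being the 25th percentile of all deposited signals. Fold changes on this log2 scale understate changes of dim genes. Testing was limited to probe sets whose mean over the arrays exceeded 11.7, the 40th percentile. A mean per clone was fitted over all 6 arrays with limma 3.58.1 in R 4.3.3 (lmFit, eBayes with a trend; 3 residual and 8.47 prior degrees of freedom) and V7 minus WT2 was taken. A call needed a Benjamini-Hochberg adjusted p below 0.05 and 2-fold. The number of arrays limits the precision. The fit was tested on simulated data.

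Of 45037 probe sets, 1937 had 1 gene name (1512 genes), 506 were unplaced sequences, 7 had several names and 42587 had none. Symbols came from RefSeq for 400 genes, and by hand for others. Named genes were to be, outside shared probes, the 12 largest rises and falls with both clones above 5.03, the 10 brightest per direction with 1 clone at or below it, up to 6 per gene list and other list members with values, genes with probe sets called in opposite directions, and up to 2 unnamed probe sets per direction. Members and lists were chosen with earlier results of these data known. Shared-probe genes and other list members were given with their values. Alternatives were quantile normalization, other constants and filters, 4 arrays alone, no trend, a stricter p, the aliquot number as a term, and each array left out. Results for 1 withheld item are not reported here.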

Additional observations from a re-analysis of the deposited data

How the results depend on the processing

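No call reversed under any of the 15 alternatives tried. The 3385 calls numbered 2704 to 3638 with 1 array left out, the fewest without V7 aliquot 2 and the most without WT2 aliquot 1. Quantile normalization gave 3239, and the remaining settings 2576 to 3329. The median change of −0.13 ranged from −0.14 to −0.11 with 1 array left out, was 0.010 after quantile normalization, −0.10 with the median signal added as the constant, −0.15 without a filter and −0.088 with a filter at the median. The aliquot number as a block gave 3267 calls, 1407 higher and 1860 lower. Deviations of same-numbered aliquots from their clone means correlated at −0.04 (WT2 with V7), 0.003 (WT2 with C5) and 0.04 (V7 with C5), so the numbers did not pair the samples. Quantile normalization raised Cd160 to 1.03, past the threshold, and lost Mt1, Mt2, Parvg, Sos1 and 1 B-raf entry. The cause of these shifts was not tested. Where 1 clone's mean lay at or below 5.03, sizes depend on the constant.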

Other observations

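Gene groups not described so far included the ubiquitin and SUMO pathway, in which 25 of 50 named genes were higher in V7, 16 lower and 9 did not pass. In membrane traffic, 9 of 18 were higher, 6 lower and 3 did not pass. RNA processing genes were higher in 15 of 35, lower in 9 and did not pass in 11. Zinc finger proteins split into 13 higher, 12 lower and 11 that did not pass of 36, and chromatin modifiers into 5, 5 and 6 of 16.

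Of 329 genes with at least 2 named probe sets tested, 108 had all of them called higher, 145 all lower, 48 some called in 1 direction and the rest not passed, 23 none called and 5 called in opposite directions. Named probe sets came from the submitters' lists of differences, so these counts leave out unnamed probe sets of the same genes. ADP-ribosylation factor 6, a GTPase of endocytosis, had 2 probe sets lower (−1.09 and −1.13) and 1 higher (1.51). The 2 probe sets of Coiled-coil-helix-coiled-coil-helix domain containing 7 changed by −1.69 and 1.59. Those of Deafness, autosomal dominant 5 homolog changed by −2.23 and 1.79, those of Rap guanine nucleotide exchange factor (GEF) 5 by −1.62 and 1.16, and those of carbonic anhydrase 12 by −2.68 and 1.29, the first with a V7 mean below 5.03.

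Outside the deposited list for V7 and WT2, which held 2419 probe sets, 1357 of 24611 tested (5.51%) were called, 393 higher and 964 lower. Their median size was 2.54-fold, against 3.49-fold for calls inside the list. Among probe sets without a name, the 2 largest calls per direction were changes of 3.68 (1.47 and 0.604 in WT2, 83.1 and 63.1 in V7), 3.05 (5.18 and 4.27 in WT2, 72.8 and 78.3 in V7), −4.91 (86.9 and 303 in WT2, 0.885 and 0.25 in V7) and −3.97 (110 and 154 in WT2, 4.26 and 2.97 in V7). In each, the mean of 1 clone lay at or below 5.03, so these sizes depend on the constant.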
